A study of Mus musculus with 8 samples.

Results

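The genes described here are those of the proteasome, found as the rows of the count table whose symbol begins with Psm, a letter from a to g and a number, leaving out Psmb8 and Psmb9. This rule found 48 of the 24421 rows. They were compared between endothelial cells of Flvcr2 heterozygous and Flvcr2 knockout mouse embryos. RNA was sequenced from 8 libraries of brain endothelial cells of C57Bl6 embryos at E14.5 (embryonic day), 4 for each genotype. Every cell collected was positive for CD31, an endothelial surface protein, and for GFP, which the mutated Flvcr2 gene expresses. Both groups therefore carried at least 1 mutant allele, and there was no wild-type group. Each library was made from 2000 to 5000 cells. The labels say neither which stretch of Flvcr2 the mutation removes nor whether libraries came from separate embryos. A p-value here therefore reflects only how these libraries varied, which may be technical.

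The proteasome degrades proteins that carry ubiquitin chains. Its core is a barrel of outer alpha rings, which gate the entrance, and inner beta rings, which hold the cutting sites. A regulatory particle caps the barrel; its base unfolds the substrate with a ring of ATPases and its lid removes ubiquitin. Alternative caps, called activators, open the barrel without this machinery, and dedicated chaperones assemble each piece. In many cells the transcription factor Nfe2l1 raises proteasome genes together when proteasome capacity falls short, through antioxidant response elements in their promoters. The constitutive subunits are housekeeping genes in endothelium as elsewhere, and interferon exchanges some of them for inducible versions.

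Of the 48 matched rows, 7 are alpha ring subunits, 7 beta ring subunits, 3 alternative core subunits (Psma8, Psmb10 and Psmb11), 6 base ATPases, 3 other base subunits, 8 lid subunits, 4 core assembly chaperones, 3 base assembly chaperones, 5 activator genes and 1 an inhibitor (Psmf1). The remaining row, Psmc3ip, encodes a meiotic recombination factor that shares only its name prefix with the family. Psmc3ip was kept in the counts of tested proteasome genes given below, although it is not part of the proteasome. A filter on low counts left 47 of the 48 for testing. Psme2b, a gene closely related to Psme2, had at most 5 counts in a library and was not tested.

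Promoter windows of 300 bases were available for 40 of the 48 genes (RefSeq, GRCm38.p6), running from 250 bases before the start site to 50 after it. Windows of 4 genes are shown. Psmb5 and Psmb6 encode cutting subunits of the beta ring, and their windows hold an element of the antioxidant response type. Psmd12 of the lid and the core chaperone Psmg1 are shown because their genotypes did not overlap. The genotypes of Psma8 did not overlap either, but no window was available for it. Capitals mark TGACNNNGC, the core of the antioxidant response element, CCAAT, the box bound by NF-Y, and CCGGAAGT, a site of the ETS family. Each was searched on both strands, and no marked matches overlap in these 4 windows.
Psmb5, chr14:54617946-54618245, minus strand: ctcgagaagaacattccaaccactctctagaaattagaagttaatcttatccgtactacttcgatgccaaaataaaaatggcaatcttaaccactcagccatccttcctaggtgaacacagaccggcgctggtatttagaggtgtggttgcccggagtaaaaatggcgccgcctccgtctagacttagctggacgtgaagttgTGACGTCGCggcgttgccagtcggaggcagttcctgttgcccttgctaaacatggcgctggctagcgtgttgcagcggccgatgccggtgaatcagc
Psmb6, chr11:70525107-70525406, plus strand: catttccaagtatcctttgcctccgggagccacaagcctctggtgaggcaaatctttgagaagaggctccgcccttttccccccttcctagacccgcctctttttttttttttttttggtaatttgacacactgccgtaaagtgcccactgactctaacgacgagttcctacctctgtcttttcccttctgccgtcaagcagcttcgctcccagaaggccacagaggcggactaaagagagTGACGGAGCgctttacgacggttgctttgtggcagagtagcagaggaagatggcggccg
Psmd12, chr11:107479278-107479577, plus strand: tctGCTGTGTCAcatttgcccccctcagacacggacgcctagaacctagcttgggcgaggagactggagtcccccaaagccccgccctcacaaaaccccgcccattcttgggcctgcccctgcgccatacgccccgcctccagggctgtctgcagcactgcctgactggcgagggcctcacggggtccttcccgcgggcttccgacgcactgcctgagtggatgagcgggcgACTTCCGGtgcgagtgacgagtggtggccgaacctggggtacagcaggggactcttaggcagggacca
Psmg1, chr16:95990911-95991210, minus strand: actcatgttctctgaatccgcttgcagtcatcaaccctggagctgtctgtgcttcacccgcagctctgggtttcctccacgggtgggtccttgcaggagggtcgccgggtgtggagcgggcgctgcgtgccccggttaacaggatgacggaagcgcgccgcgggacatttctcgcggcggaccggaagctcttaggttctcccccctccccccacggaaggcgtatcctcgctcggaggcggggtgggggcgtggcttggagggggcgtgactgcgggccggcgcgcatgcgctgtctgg
The antioxidant response letters begin at position -47 in Psmb5 and -9 in Psmb6, counted from the start site, and at -247 on the other strand in Psmd12. Psmd12 also holds the ETS letters, on the other strand, at -18. The Psmg1 window holds none of the 3 motifs. Among the tested proteasome genes with a window, 6 of 39 (15.4%) held the antioxidant response letters, against 17.0% of the 10311 tested genes with a window and 12.4% of all 32851 windows. A match is a string of letters, and binding was not measured.

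Libraries held 9.11 to 35.9 M counts. Flvcr2, listed as Mfsd7c, spanned 276 to 578 CPM (TMM-scaled CPM, the counts scaled to library size) among heterozygotes and 227 to 393 CPM among knockouts. The overlapping levels (log2 fold change -0.50; edgeR adjusted p = 0.209) do not separate the genotypes, and whether they come from outside the mutated part was not tested. The cells had strong endothelial transcripts: the 10 endothelial markers summed to 6310 to 11000 CPM (heterozygous) and 8420 to 11600 CPM (knockout), and 1 of the 10 rose. Markers of most other cell types included genes that fell in knockout libraries. Of the tested markers, 7 of 10 for neurons, 3 of 8 for radial glia, 2 of 8 for pericytes, 1 of 8 for microglia, 2 of 4 for erythroid cells and 0 of 6 for fibroblasts fell, and 0 of these 44 rose. Over all 13540 tested genes, 4.02% fell and 5.53% rose. In the same order of cell types, the median log2 fold changes were -2.40, -2.29, -2.08, -1.36, -3.31 and -0.48. Given as heterozygous and then knockout range, the neuron markers summed to 282 to 1720 and 92.5 to 267 CPM, radial glia markers to 141 to 449 and 35.5 to 231, and pericyte markers to 162 to 274 and 20.1 to 168. Microglia markers summed to 400 to 1150 and 102 to 661 CPM, erythroid markers to 228 to 611 and 17.6 to 51.8, and fibroblast markers to 206 to 328 and 94.8 to 507. No listed marker was at 0 in all libraries. In such bulk samples, fewer cells of a type and less RNA per cell cannot be told apart.

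Of the 47 tested proteasome genes, 1 rose in knockout cells, 0 fell and 46 did not pass the test (edgeR quasi-likelihood test, adjusted p under 0.05). The gene that rose was Psma8, an alternative alpha subunit best known from the testis. Among all 13540 tested genes, 9.55% were called, 5.53% as higher and 4.02% as lower, so the 2.13% of proteasome genes called lies below the share for all genes. At an unadjusted p under 0.05, 2 proteasome genes were higher and 3 lower (10.6%), where 25.6% of all genes reached that level. DESeq2 called 1 higher and 1 lower (Psmd12), which is 4.26% of the proteasome genes, against 16.5% of all genes, 8.2% as higher and 8.26% as lower. The genotypes did not overlap for 3 proteasome genes (6.38%), against 17.6% of all tested genes. Psma8 and Psmg1 lay above in knockout, where 9.7% of all genes did, and Psmd12 below, where 7.9% did. The median log2 fold change of the proteasome genes was -0.0048, and that of all tested genes -0.03. The median size of the change, whatever its sign, was 0.11 on the log2 scale for proteasome genes and 0.39 for all genes.

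Judged by how these libraries varied, the intervals bounded most changes. They may leave out variation between embryos, since the labels do not say whether libraries came from separate ones. The median standard error of a proteasome gene was 0.15 on the log2 scale, against 0.28 for all tested genes, which include many less abundant ones. The 95% interval lay within a 2-fold change in either direction for 43 of the 47 genes, and within 1.41-fold for 29. The 4 genes whose interval reached past 2-fold were Psma8, Psmb11, Psmc3ip and Psmg4. These values rest on TMM scaling. With library size alone the median of all genes shifted by -0.12, and 11 rather than 23 of the 47 proteasome genes had a fold change above 0, with a median of -0.13 beside -0.15 for all genes.

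**Figure D1:**
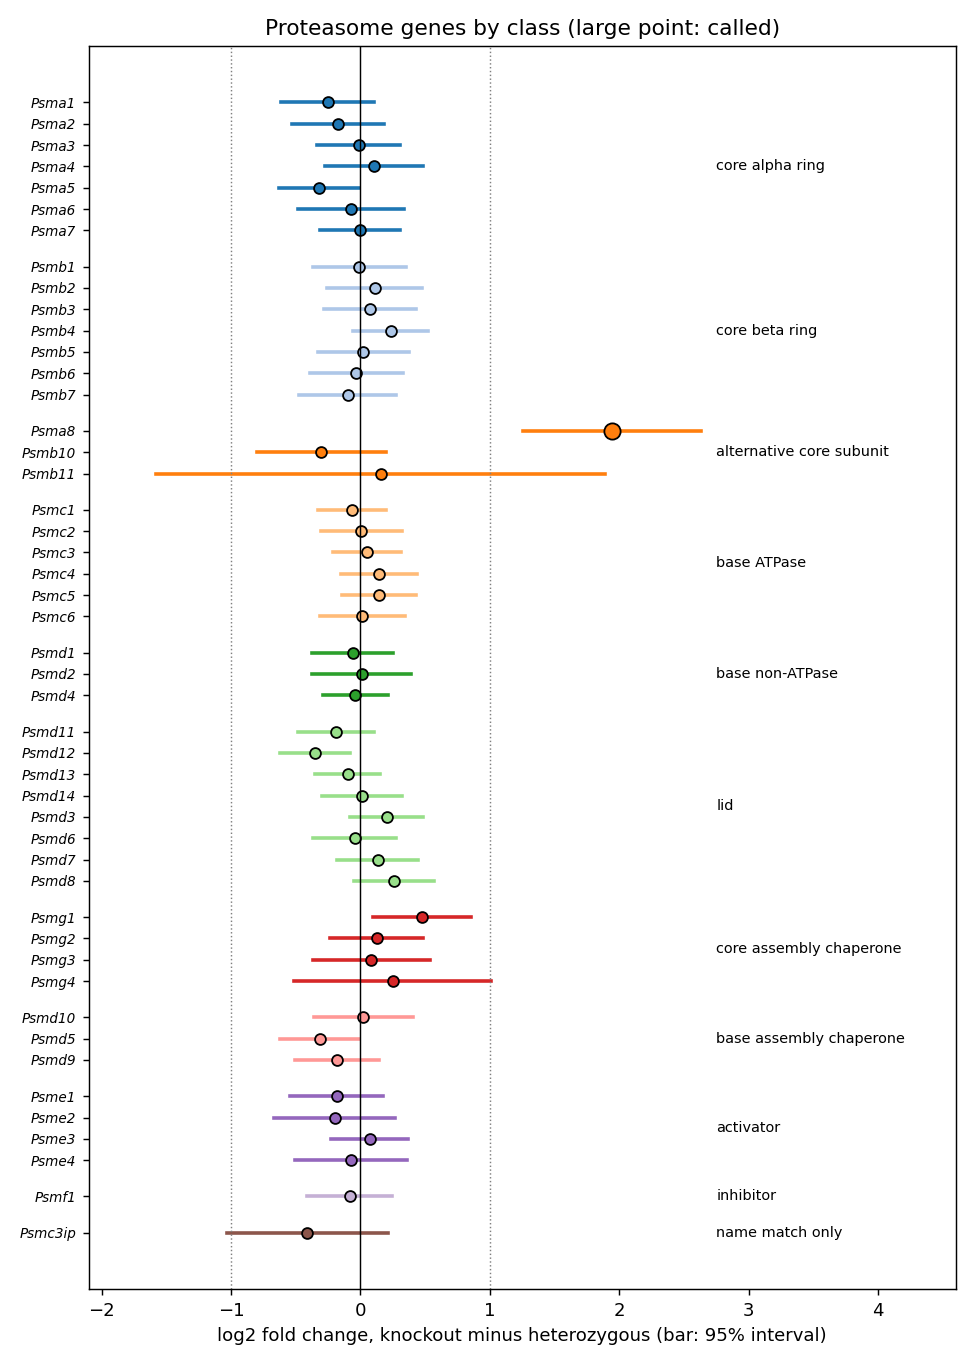
Log2 fold change of knockout over heterozygous cells for the 47 tested proteasome genes, grouped by class (points, estimates; bars, 95% intervals; dotted lines, 2-fold in either direction; n = 4 libraries a genotype). Psma8, at 1.94, is the called gene, and the other 46 lie between -0.41 and 0.47. The value of -0.41 is that of Psmc3ip, which matches by name only, and the next lowest is Psmd12 at -0.35.

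In the core, none of the 14 subunits of the alpha and beta rings was called. Log2 fold changes of the alpha ring genes Psma1 to Psma7 ran from -0.32 to 0.11 with a median of -0.07, and those of the beta ring genes Psmb1 to Psmb7 from -0.10 to 0.23 with a median of 0.02. The genotypes overlapped for all 14. Summed over these 14 genes, the core took 5020, 4640, 4156 and 5326 CPM in heterozygous 1 to 4 and 4312, 5938, 4555 and 4031 CPM in knockout 1 to 4. Knockout 2 had the highest sum and knockout 4 the lowest, so 1 genotype held both ends.

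The cutting sites lie in Psmb5, Psmb6 and Psmb7. Psmb5 (chromosome 14, 54614120 to 54617995, GRCm38), the chymotrypsin-like subunit, was at 367, 285, 283 and 352 CPM in heterozygous 1 to 4 and 303, 412, 299 and 293 CPM in knockout 1 to 4. The groups overlapped, and knockout 2 stood above the other libraries. Mir686 overlaps 12.1% of its exons and 54.1% of its 50-base stretches recur in transcripts of other genes, so its reads may be shared. The log2 fold change of Psmb5 was 0.02 ± 0.16 (SE; 95% interval -0.33 to 0.37; edgeR adjusted p = 0.954). Psmb6, the caspase-like subunit, was at 536, 447, 411 and 502 CPM in heterozygous 1 to 4 and 440.4, 598, 428 and 389.6 CPM in knockout 1 to 4, a log2 fold change of -0.03 ± 0.16 (SE; 95% interval -0.39 to 0.33; edgeR adjusted p = 0.927). Psmb7, the trypsin-like subunit, was at 219, 206, 178 and 233 CPM in heterozygous 1 to 4 and 171, 257, 191 and 160.4 CPM in knockout 1 to 4, a log2 fold change of -0.10 ± 0.17 (SE; 95% interval -0.48 to 0.28; edgeR adjusted p = 0.759). In both, knockout 2 was the highest library and knockout 4 the lowest; Nek6, on the opposite strand, overlaps 11.8% of the Psmb7 exons. Within a library the 3 kept nearly fixed proportions: per kilobase of transcript, Psmb5 stood at 60.2 ± 2.46% of Psmb6 with the heterozygous genotype and 62.7 ± 2.68% with the knockout (SD, n = 4 each), and Psmb7 at 30.4 ± 1.79% and 28.8 ± 1.67%.

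Psmb2, a structural beta subunit, had the second highest CPM of its ring after Psmb6, at 439, 421, 353 and 475 CPM in heterozygous 1 to 4 and 423, 590.0, 438 and 370.2 CPM in knockout 1 to 4. Psma6 and Psma7 had the highest CPM of the alpha ring. Psma6 was at 429, 466, 400.4 and 544 CPM in heterozygous 1 to 4 and 358, 577, 469.5 and 345 CPM in knockout 1 to 4, and Psma7 at 453, 426, 385 and 459.7 CPM in heterozygous 1 to 4 and 413, 523, 409 and 374 CPM in knockout 1 to 4. All 3 overlapped between genotypes, with log2 fold changes of 0.11, -0.07 and -0.0048. Psma5, an alpha subunit, was at 264, 256, 229 and 287 CPM in heterozygous 1 to 4 and 181, 235, 226 and 188 CPM in knockout 1 to 4, a log2 fold change of -0.32 ± 0.14 (SE; 95% interval -0.63 to -0.01; edgeR adjusted p = 0.179). Knockout 2 lay above heterozygous 3, and the other 3 knockout libraries lay below every heterozygous one. Psma5 shares 50% of its stretches of 50 bases, the read length, with annotated transcripts of other genes, so reads could be split between copies.

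No gene of either ring passed the test. The balance of the rings within a library did not overlap between genotypes. For single genes, 17.6% of all those tested did not overlap, and no such share was computed for differences between classes. The mean log2 CPM of the alpha ring minus that of the beta ring came to -0.02, 0.04, -0.02 and -0.01 for heterozygous 1 to 4, and to -0.23, -0.17, -0.09 and -0.11 for knockout 1 to 4. The beta ring thus stood higher against the alpha ring in each knockout library than in any heterozygous one, by 0.15 on average (-0.00 ± 0.03 against -0.15 ± 0.06, SD, n = 4 each). Scaling cancels in this difference. It has no test, since the genes were chosen with results in view, and the part of the other-cell transcripts in it was not tested. Median transcript length was 1201 bases in the alpha ring and 899 in the beta ring. The part of length in the difference was not tested either. Without the 5 core genes that share at least 10% of their 50-base stretches with other transcripts (Psma3, Psma4, Psma5, Psmb3 and Psmb5), a choice made after seeing the data, the difference came to 0.21, 0.21, 0.23 and 0.22 for heterozygous 1 to 4, and to -0.03, 0.06, 0.10 and 0.05 for knockout 1 to 4. The members at its ends were Psma5 and Psma1 (-0.32 and -0.25) in the alpha ring and Psmb4 and Psmb2 (0.23 and 0.11) in the beta ring.

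**Figure D2:**
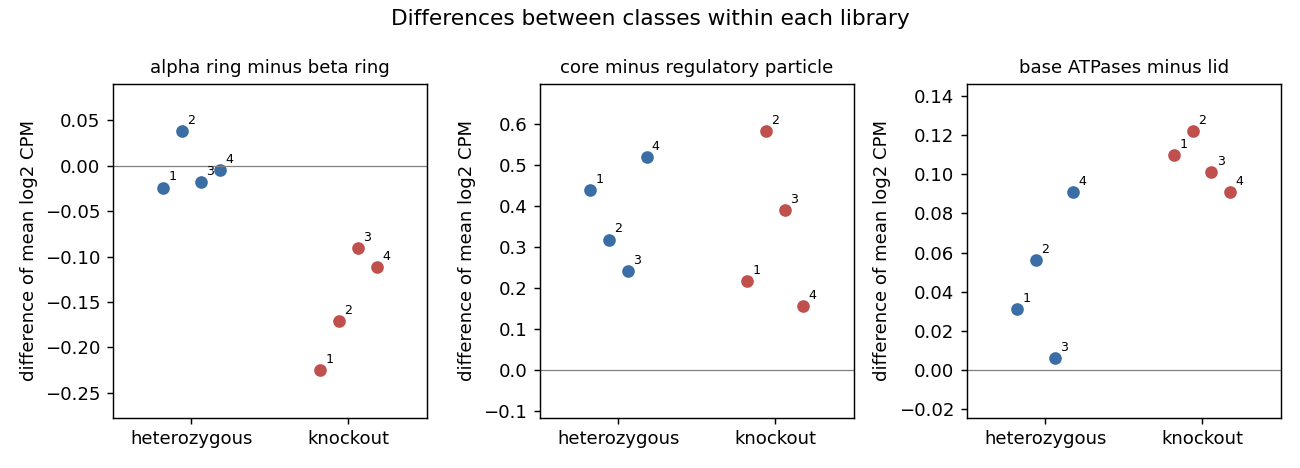
Difference between the mean log2 CPM of 2 classes of subunits within each library (points, libraries, numbered by replicate). The alpha ring minus beta ring difference runs from -0.02 to 0.04 with the heterozygous genotype and from -0.23 to -0.09 with the knockout, while the core minus regulatory particle difference overlaps between genotypes.

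Psma8 takes the place of the alpha ring subunit Psma7 in the proteasome of germ cells. The gene (Entrez 73677) lies on chromosome 18. It was at 2.94, 2.97, 4.7 and 3.83 CPM in heterozygous 1 to 4 and 15.5, 11, 13.3 and 16.1 CPM in knockout 1 to 4, from 31, 28, 110 and 69 counts and 304, 126, 234 and 557 counts. Every knockout library was above every heterozygous one, with knockout 2 the lowest of its group. Psma8 rose 3.85-fold, from 3.61 ± 0.832 to 14 ± 2.33 CPM (SD, n = 4 each; log2 fold change 1.94 ± 0.31, SE; 95% interval of the fold 2.39 to 6.21; edgeR adjusted p = 0.00512). It remained a minor transcript: per kilobase it reached 0.351, 0.377, 0.659 and 0.450% of Psma7 in heterozygous 1 to 4 and 2.03, 1.13, 1.76 and 2.32% in knockout 1 to 4. No stretch of 50 bases in its annotated transcripts occurs in those of another gene, Psma7 included, and no other annotated exon overlaps it. Dropping each of the 8 libraries in turn kept the call every time (edgeR adjusted p 0.00661 to 0.0231). Without heterozygous 2 and knockout 1 together the log2 fold change was 1.82 and the adjusted p 0.0564 (edgeR). With the mean level of the other-cell markers as a covariate it was 1.81 and 0.590 (edgeR), in a fit that called 0 of all tested genes and put 1 proteasome gene at an unadjusted p under 0.05. That marker level (mean log2 CPM) spanned 4.27 to 5.39 among heterozygotes and 1.94 to 3.36 among knockouts without overlap, so genotype and other-cell transcripts cannot be told apart.

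Psmb10, the interferon-inducible counterpart of Psmb7, was at 35.9, 39.0, 32.1 and 57.0 CPM in heterozygous 1 to 4 and 35.0, 42.4, 27.3 and 28.5 CPM in knockout 1 to 4. Heterozygous 4 was the highest library and the genotypes overlapped, with a log2 fold change of -0.30 ± 0.23 (SE; 95% interval -0.80 to 0.20; edgeR adjusted p = 0.439). Per kilobase Psmb10 stood at 17.2 ± 3.12% of Psmb7 with the heterozygous genotype, reaching 21.7% in heterozygous 4, and 15.3 ± 2.26% with the knockout (SD, n = 4 each). Psmb11, the core subunit of thymic epithelium, had 3 to 22 counts in a library, with a log2 fold change of 0.16 ± 0.79 (SE) and a 95% interval of -1.58 to 1.89.

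**Figure D3:**
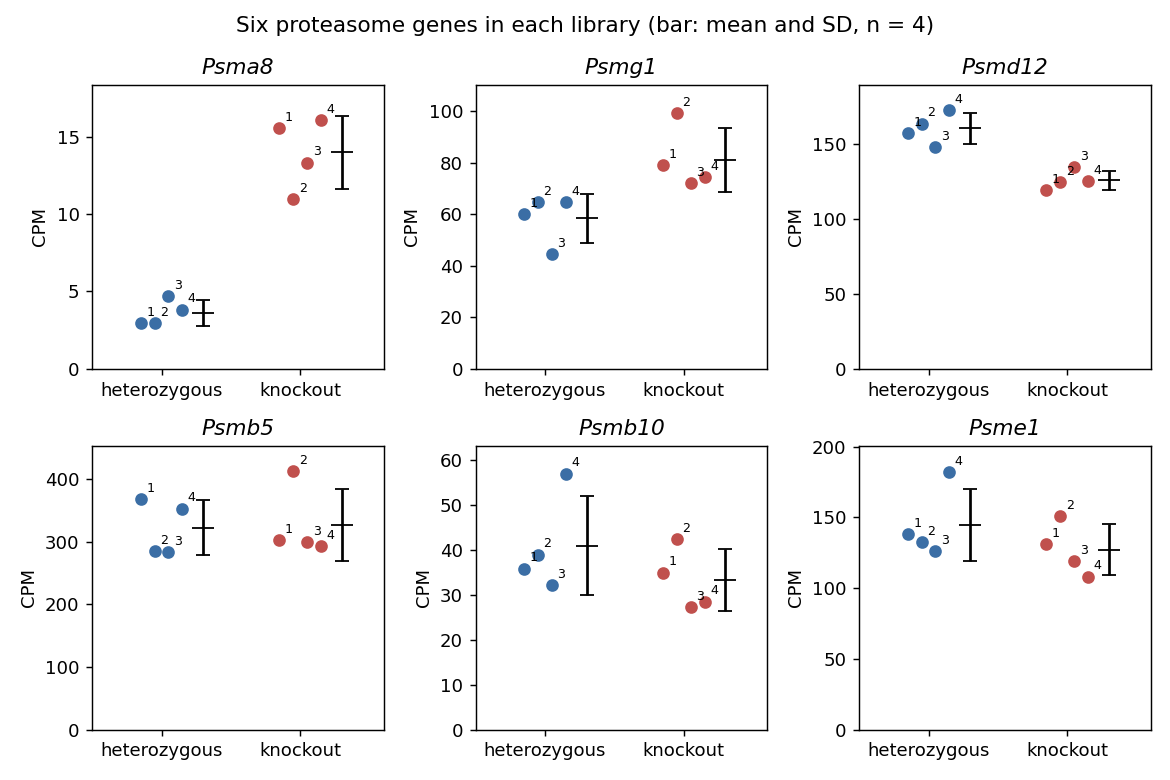
CPM of 6 proteasome genes in each library (points, numbered by replicate; bars, mean and SD of 4 libraries). Psma8 and Psmg1 are higher and Psmd12 lower in all knockout libraries, whereas Psmb5, Psmb10 and Psme1 overlap; of these Psma8 was called.

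In the regulatory particle, none of the 17 subunits was called, and log2 fold changes ran from -0.35 to 0.26 with a median of 0.01. The summed level was 4563, 4578, 4415 and 4606 CPM in heterozygous 1 to 4 and 4707, 4946, 4291 and 4615 CPM in knockout 1 to 4. This sum varied less between libraries than that of the core (SD 85.8 and 271 CPM, heterozygous and knockout, against 505 and 847 CPM). Opposite moves of genes cancel in a sum. Deviations from the genotype mean correlated at a median of 0.30 between pairs of regulatory particle genes, with 50 of 136 pairs negative. For pairs of core genes the median was 0.90, with 0 of 91 negative. Gene by gene the 2 were closer, with median standard errors of 0.13 and 0.16 on the log2 scale. The ATPases of the base, Psmc1 to Psmc6, lay between -0.07 and 0.14. Psmc3 was at 337, 331, 361 and 389 CPM in heterozygous 1 to 4 and 353, 391, 352 and 372 CPM in knockout 1 to 4, and Psmc4 at 302, 322, 264 and 300.4 CPM in heterozygous 1 to 4 and 331, 379.9, 309 and 291 CPM in knockout 1 to 4. Both overlapped between genotypes. The mean log2 CPM of the ATPases minus that of the lid came to 0.05 ± 0.04 with the heterozygous genotype and 0.11 ± 0.01 with the knockout (SD, n = 4 each), with heterozygous 4 and knockout 4 both at 0.09.

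Of the other base subunits, Psmd2 and Psmd1 form the scaffold that docks ubiquitin receptors and Psmd4 is such a receptor. Psmd2 was at 482, 446, 495 and 386 CPM in heterozygous 1 to 4 and 542, 384, 354 and 540.1 CPM in knockout 1 to 4, and Psmd1 at 259.7, 264, 284 and 230.1 CPM in heterozygous 1 to 4 and 278, 203, 242 and 273 CPM in knockout 1 to 4. Knockout 1 and 4 were the 2 highest of their genotype and knockout 2 and 3 the 2 lowest in both genes, unlike the core, where knockout 2 was highest. Log2 fold changes of Psmd1, Psmd2 and Psmd4 were -0.06, 0.01 and -0.04. Psmd2 shares 17.8% of its 50-base stretches with other transcripts, so its reads may be shared.

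The lid held the lowest fold change of the regulatory particle, in Psmd12, a scaffold subunit (chromosome 11, 107479528 to 107498036). Psmd12 was at 157, 163, 148 and 173 CPM in heterozygous 1 to 4 and 119, 124, 134 and 125 CPM in knockout 1 to 4. Every knockout library was below every heterozygous one, but the difference did not pass the test. Means were 160.2 ± 10.4 against 126 ± 6.42 CPM (SD, n = 4 each), with a log2 fold change of -0.35 ± 0.12 (SE; 95% interval -0.62 to -0.08; edgeR adjusted p = 0.0984). DESeq2 gave an adjusted p of 0.0187 and edgeR with library size alone 0.0368. The other 7 lid genes overlapped between genotypes. Psmd8 was at 364, 374, 336 and 449.5 CPM in heterozygous 1 to 4 and 448, 527, 432 and 416 CPM in knockout 1 to 4, and Psmd3 at 299.8, 328, 308 and 287 CPM in heterozygous 1 to 4 and 377, 315, 326 and 388 CPM in knockout 1 to 4, with log2 fold changes of 0.26 and 0.20. Psmd14, the enzyme that cuts ubiquitin off the substrate, had a log2 fold change of 0.01.

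Levels of core genes moved together from library to library within both genotypes. Among knockout libraries, knockout 2 was the highest for 14 of 14 core genes and knockout 4 the lowest for 12. Among heterozygous libraries, heterozygous 3 was the lowest for 13 and heterozygous 4 the highest for 10. In the regulatory particle knockout 2 was the highest for 12 of 17 genes and heterozygous 3 the lowest for 9. Transcript length moved with this pattern. Core transcripts had a median length of 1163 bases and those of the regulatory particle 1636 bases, and over the 31 genes the deviation from the genotype mean had a Spearman correlation with length of -0.62 in knockout 2, 0.69 in knockout 4, 0.45 in heterozygous 3 and -0.44 in heterozygous 4. In the other libraries it was -0.36 and 0.29 (heterozygous 1 and 2) and 0.42 and -0.13 (knockout 1 and 3). For knockout 2 and 4 and heterozygous 3 and 4, the same correlations were -0.51, 0.46, 0.54 and -0.42 over the 4045 located genes that averaged at least 50 CPM. Over all 13016 located genes they were smaller, at -0.25, 0.24, 0.30 and -0.23. They are across genes of 1 library, which are not independent replicates, and the part of length in the levels was not tested.

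**Figure D4:**
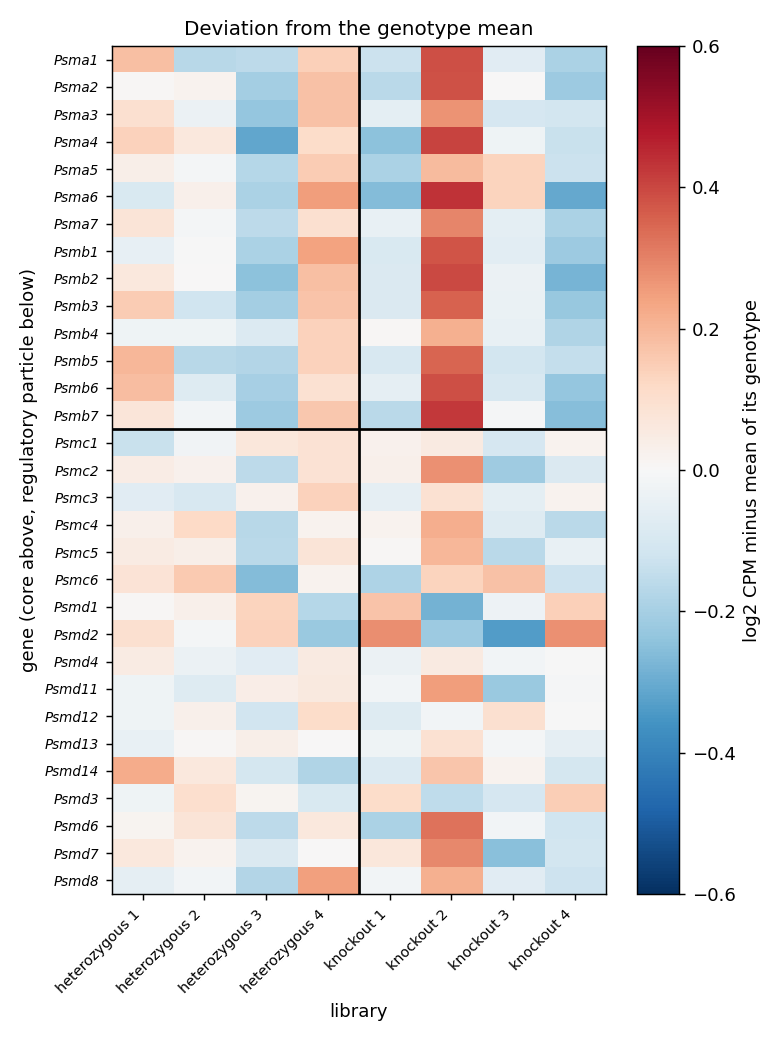
Log2 CPM of the 14 core genes (above the line) and 17 regulatory particle genes (below it) in each library, minus the mean of the 4 libraries of its genotype (colour scale). Knockout 2 is the highest knockout library for all 14 core genes, and heterozygous 3 the lowest heterozygous library for 13.

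Of the 7 assembly chaperones, none was called. The 4 core chaperones Psmg1 to Psmg4 had log2 fold changes of 0.47, 0.13, 0.08 and 0.25. Psmg1 (chromosome 16, 95979933 to 95990960), which pairs with Psmg2 to build the alpha ring, was at 60.0, 64.9, 44.6 and 64.6 CPM in heterozygous 1 to 4 and 79.1, 99.4, 72.1 and 74.4 CPM in knockout 1 to 4. All knockout libraries were above all heterozygous ones, with knockout 2 the highest, but the difference did not pass the test. Means were 58.5 ± 9.55 against 81.3 ± 12.4 CPM (SD, n = 4 each), with a log2 fold change of 0.47 ± 0.17 (SE; 95% interval 0.09 to 0.85; edgeR adjusted p = 0.112). Its partner Psmg2 overlapped between genotypes, at 44.3, 45.7, 37.7 and 52.0 CPM in heterozygous 1 to 4 and 49.1, 57.4, 45 and 44.8 CPM in knockout 1 to 4. Among chaperones of the base, Psmd5 was at 121, 113, 121 and 99.5 CPM in heterozygous 1 to 4 and 83.3, 107, 86.4 and 88.7 CPM in knockout 1 to 4, a log2 fold change of -0.32 ± 0.14 (SE; 95% interval -0.62 to -0.01; edgeR adjusted p = 0.184). Psmd9 was at 67.2, 71.4, 67.8 and 85.5 CPM in heterozygous 1 to 4 and 62.5, 75.1, 58.9 and 61.3 CPM in knockout 1 to 4. In both genes knockout 2 lay within the heterozygous values, and the genotypes overlapped; 25.5% of the Psmd9 exons overlap another gene. Psmd10, also known as gankyrin, had a log2 fold change of 0.02.

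None of the 4 tested activator genes was called, with log2 fold changes from -0.20 to 0.07. Psme1 and Psme2 encode the subunits of the interferon-inducible activator, which form a ring together. Psme1 was at 138, 133, 126 and 182 CPM in heterozygous 1 to 4 and 131, 151, 119 and 108 CPM in knockout 1 to 4, and Psme2 at 109, 99.3, 82.9 and 158 CPM in heterozygous 1 to 4 and 97.3, 122, 91.9 and 79.2 CPM in knockout 1 to 4. Heterozygous 4 was the highest library for both, as it was for Psmb10, and the intervals of the log2 fold changes were -0.55 to 0.18 and -0.67 to 0.27. Per kilobase Psme1 stood at 114 ± 13.2% of Psme2 with the heterozygous genotype and 113 ± 5.27% with the knockout (SD, n = 4 each); Psme2 shares 28.3% of its 50-base stretches with other transcripts, chiefly Psme2b. Psme3, the nuclear activator, was at 155, 168, 146 and 127 CPM in heterozygous 1 to 4 and 147, 159.7, 146 and 174 CPM in knockout 1 to 4. Psme4, a large nuclear activator of a different build, was at 32.0, 23.4, 21.4 and 22.9 CPM in heterozygous 1 to 4 and 25.5, 23.8, 21.8 and 23.4 CPM in knockout 1 to 4. Both overlapped, with log2 fold changes of 0.07 ± 0.14 and -0.08 ± 0.20 (SE). The inhibitor Psmf1 was at 80.3, 79.0, 80.9 and 68.3 CPM in heterozygous 1 to 4 and 77.7, 82.4, 58.7 and 72.5 CPM in knockout 1 to 4, a log2 fold change of -0.08 ± 0.15 (SE). Psmc3ip was at 15.4, 11.9, 12.1 and 11.4 CPM in heterozygous 1 to 4 and 6.44, 10.2, 12.2 and 9.32 CPM in knockout 1 to 4, and its genotypes overlapped (log2 fold change -0.41 ± 0.28, SE).

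Levels per kilobase of the principal annotated transcript placed core genes first. In heterozygous cells Psmb6 was highest at 594 ± 70.3 RPKM (reads per kilobase, scaled to library size; SD, n = 4), followed by Psmb2 at 491 ± 59.4, Psmb3 at 484 ± 63.0, Psma7 at 471 ± 37.1 and Psma6 at 441 ± 59.7, and the last 4 differed from each other by no more than their spread. Class medians on this scale were 358 for the beta ring, 209 for the alpha ring, 197 for the base ATPases, 153 for the other base subunits, 126 for the lid, 56.0 for the activators, 46.9 for core chaperones and 28.1 for base chaperones. Psmf1 stood at 20.3 ± 1.56. In knockout cells the medians were 363, 205, 202, 154, 133, 58.8, 50.4 and 24.8, in the same order. The activator medians are over 5 genes and include the untested Psme2b, at 0.14 in heterozygous and 0 in knockout cells. Psma8 was at 2.13 ± 0.492 in heterozygous and 8.26 ± 1.38 in knockout cells, below every constitutive subunit in both.

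Of 28 further genes that work with the proteasome, 27 were in the table and all 27 were tested; 1 rose and 0 fell (edgeR, adjusted p under 0.05; 3.70%, against 9.55% of all genes), with a median log2 fold change of 0.15. At an unadjusted p under 0.05, 5 were higher and 0 lower (18.5%, against 25.6% of all genes), and DESeq2 called 4 higher and 0 lower (14.8%, against 16.5% of all genes in either direction and 8.2% as higher). Over both directions these shares lie below those for all genes, but the DESeq2 share called higher lies above the 8.2% for all genes. Log2 fold changes were above 0 for 20 of the 27, against 6488 of the 13540 tested genes. The median of all tested genes was -0.03. The gene that rose was Ddi2, the protease that activates Nfe2l1 by cleaving it. Ddi2 was at 15.3, 13.8, 26.9 and 10.2 CPM in heterozygous 1 to 4 and 41.8, 21.7, 54.1 and 41.0 CPM in knockout 1 to 4. It rose 2.39-fold (log2 fold change 1.26 ± 0.34, SE; 95% interval 0.50 to 2.01; edgeR adjusted p = 0.0434), but knockout 2 lay below heterozygous 3. Dropping 1 library at a time ended the call in 6 of 8 cases, those without heterozygous 1, 2 or 4 or knockout 1, 3 or 4 (adjusted p 0.0225 to 0.105 over the 8), and with library size alone (0.0680). Rsc1a1, annotated on the same strand, overlaps 18.3% of its exons, so reads of these genes cannot be told apart there.

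Nfe2l1 itself was at 83.5, 124, 127 and 75.3 CPM in heterozygous 1 to 4 and 158, 99.6, 115 and 177 CPM in knockout 1 to 4, a log2 fold change of 0.43 ± 0.23 (SE; 95% interval -0.09 to 0.94; edgeR adjusted p = 0.281). Knockout 2 and 3 lay within the heterozygous values. Nfe2l2, a related factor that acts in oxidative stress, was at 85.5, 118, 92.4 and 99.0 CPM in heterozygous 1 to 4 and 133, 124, 132 and 161 CPM in knockout 1 to 4. It was the 1 gene of the 27 whose genotypes did not overlap (3.70%, against 17.6% of all genes), but it did not pass the test (log2 fold change 0.48 ± 0.15, SE; edgeR adjusted p = 0.0702; DESeq2 0.0230). Nfe2l2 was singled out after its values were seen. Pomp, the maturation factor of the beta ring, was at 324, 369, 311 and 405 CPM in heterozygous 1 to 4 and 485, 644, 585 and 378 CPM in knockout 1 to 4. Knockout 4 overlapped the heterozygous libraries, and the difference did not pass the test (log2 fold change 0.57 ± 0.18, SE; 95% interval 0.17 to 0.96; edgeR adjusted p = 0.0725). The adjusted p of Pomp was 0.0242 with DESeq2, and 0.0411 in edgeR without knockout 4. Adrm1, a ubiquitin receptor of the base, was at 177, 196, 173 and 200.4 CPM in heterozygous 1 to 4 and 209, 226, 187 and 210.1 CPM in knockout 1 to 4, and Sem1, the smallest lid subunit, listed as Shfm1, at 298, 309, 235 and 417 CPM in heterozygous 1 to 4 and 306, 502, 355 and 259 CPM in knockout 1 to 4. Both overlapped, with log2 fold changes of 0.15 and 0.18. Adrm1 shares 25.7% of its 50-base stretches with other transcripts, so its reads may be shared.

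**Figure D5:**
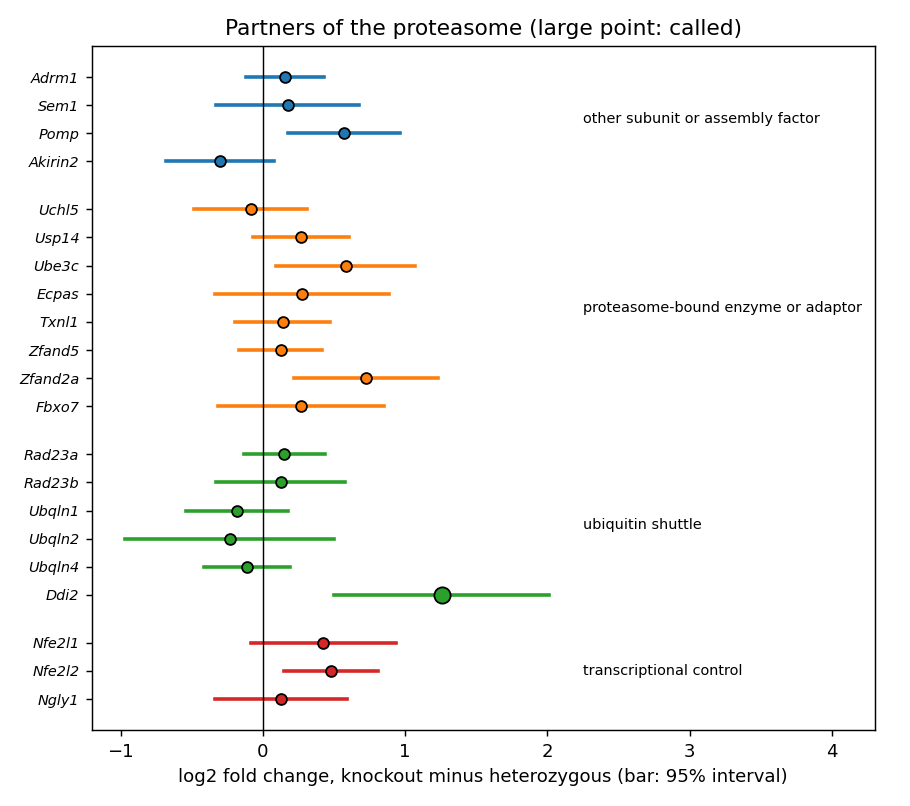
Log2 fold change of knockout over heterozygous cells for 21 of the 27 genes that work with the proteasome: other subunits and assembly factors, bound enzymes and adaptors, shuttles and transcriptional control (points, estimates; bars, 95% intervals; n = 4 libraries a genotype). Ddi2, at 1.26, is the called gene; Pomp, at 0.57, and Nfe2l1, at 0.43, did not pass the test.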

How the data were processed

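The deposited table gives raw counts per gene symbol for 4 heterozygous and 4 knockout libraries. Build mm10, TopHat2 (0.7) and Cufflinks (2.2.1) are named in the submitters' processing notes. Not given in the sources used here are the counting program and its strand setting. In R 4.3.3, edgeR 4.0.16 kept 13540 genes (filterByExpr, minimum count 10, minimum total 15), scaled libraries by TMM and tested genotype alone with the robust quasi-likelihood test. Benjamini-Hochberg adjustment ran over every tested gene, and a gene was called under 0.05. Alternatives used other scalings, no filter, DESeq2 1.42.0, limma 3.58.1 (voom), a replicate block, an other-cell covariate and fewer libraries. For log2 CPM the prior count was 2. Lengths, exon overlaps and shared stretches came from GENCODE (GRCm38, the same assembly as mm10), taking the principal transcript; coordinates and promoters came from RefSeq.

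Members and lists were chosen with earlier results of these data known. Values in every library are given for called members, the cutting subunits, Psmb10, the activators, Psmf1 and the 2 most abundant genes of each uncalled class; Psma5, Psmd12, other genes named singly and the class differences were chosen after their values were seen. On simulated counts for this comparison (13196 genes), 38.8% of 98 genes changed 2-fold and 72.0% of 93 changed 4-fold were recovered, with 5 of 110 calls false. The changed genes were drawn at random from all tested genes. Proteasome genes had a smaller median standard error (0.15 against 0.28 on the log2 scale), so these recovery rates do not describe them. No 2 libraries of a genotype looked like 1 library deposited again: their counts differed with a chi-square of 28.9 or more per degree of freedom. Paaf1 was not analysed here. Values of some genes that work with the proteasome are not reported here.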

Additional observations from a re-analysis of the deposited data

Results flagged for a closer look

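In 94 groups of 4 libraries, those of the 47 tested proteasome genes in each genotype, 3 held a library far from the others. If the groups were independent, chance would mark about 1 group in 20. The groups come from the same libraries, and knockout 2 was the highest knockout library for 14 of 14 core genes. This rate therefore cannot say whether the 3 exceed chance. Psma3, an alpha ring gene, was at 437.1 CPM in knockout 2, and the other knockout libraries lay between 336.8 and 349.0 CPM. Psmb5, the chymotrypsin-like subunit gene, was at 412.2 CPM in knockout 2, against 292.7 to 302.6 CPM in the others. Psmf1, the inhibitor gene, was at 68.31 CPM in heterozygous 4, against 79.01 to 80.94 CPM in the others.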

How the results depend on the processing

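The count of proteasome genes higher in knockout was 1 when each library was dropped in turn (1 to 1) and with library size alone, RLE factors, no count filter, DESeq2 and limma voom; it was 0 without heterozygous 2 and knockout 1 together and 0 with the other-cell covariate. The count lower in knockout was 1 with library size alone and 1 with DESeq2 (Psmd12 in both) and 0 under all other alternatives. Of the genes that work with the proteasome, 0 were higher with library size alone, 4 with DESeq2 (Ddi2, Nfe2l2, Pomp and Zfand2a; DESeq2 also called 2229 of all genes, against 1293), 0 without heterozygous 2 and knockout 1 together, 0 with the other-cell covariate and 0 to 2 when each library was dropped in turn; 0 were lower under every alternative.

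With the replicate number as a block, 1 proteasome gene and 1 gene that works with the proteasome were higher and 0 of either lower, while calls over all genes went from 1293 to 868. The labels do not say that the numbers pair libraries. Deviations of same-numbered libraries correlated at 0.06, 0.21, -0.05 and 0.02. Heterozygous 2 correlated best with knockout 2, but heterozygous 1 correlated best with knockout 3 (0.14). Correlations this weak cannot settle pairing, so without such a label the numbers were not taken as pairs. Over all genes, 749 were higher and 544 lower with TMM, against 539 and 725 with library size alone. Depth limits Psmb11, Psme2b and, less so, Psma8, which rest on few counts. The causes of these changes were not tested.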

Other observations

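Motif letters in the promoter windows were also counted by class, with no test. CCGGAAGT was in 5 of 14 regulatory particle genes with a window (35.7%) and 1 of 11 core genes (9.09%). It was in 8.63% of tested genes and 4.31% of all genes with a window, and in 3.89% of all windows. CCAAT was in 6 of 11 core genes (54.5%) and 4 of 14 regulatory particle genes (28.6%). It was in 42.5% of tested genes and 41.1% of all genes with a window, and in 37.4% of all windows. TGACNNNGC was in 2 of 11 core genes (18.2%), Psmb5 and Psmb6, and in 2 of 14 regulatory particle genes (14.3%), Psmc6 and Psmd12.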
